A study of Chlorocebus aethiops with 24 samples.

Results

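Neurotransmitter receptors are the proteins through which a transmitter released by one neuron acts on the next cell. GABA-A, glycine, ionotropic glutamate, and nicotinic acetylcholine receptors are ion channels built from several subunits and act fast, whereas most receptors for serotonin, dopamine, noradrenaline, adenosine, opioids, and other peptides are coupled to G proteins and act more slowly. In the hippocampus, GABA-A receptors carry most fast inhibition, glutamate receptors carry most excitation, and the receptors coupled to G proteins tune both.

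The members were all probe sets of the deposited table for which the platform annotation gave a single gene symbol beginning with the stem of a GABA, glutamate, glycine, acetylcholine, serotonin, dopamine, adrenergic, adenosine, P2, opioid, neurotensin, somatostatin, or neuropeptide Y receptor, with GRIA1 left out. This gave 32 probe sets of 30 genes, out of 11512 probe sets. CHRNA7 and GABRB1 had 2 probe sets each. The members fell into 12 transmitter classes. GABA-A subunits had 6 probe sets (GABRA2, GABRA3, GABRB1, GABRE, GABRG3), ionotropic glutamate symbols had 5 (GRIA4, GRID1, GRIK1, GRID2IP, GRINA), nicotinic subunits had 5 (CHRNA7, CHRNA10, CHRNB1, CHRNE), serotonin receptors had 3 (HTR1A, HTR1E, HTR7), P2 receptors had 3 (P2RX4, P2RX7, P2RY12), and peptide receptors had 3 (NPY5R, SSTR1, SSTR2). The glycine receptor was represented by GLRA2 and GLRB, and CHRM3, DRD2, ADRA2A, ADORA2B, and OPRM1 were the only members of their classes. A pair of symbols caught by the stem are not receptor subunits: GRID2IP encodes a scaffold protein that binds the delta 2 glutamate receptor, and GRINA encodes a membrane protein named for an association with NMDA receptors. No member was a GABA-B, metabotropic glutamate, beta adrenergic, or neurotensin receptor or an NMDA receptor subunit, so these were not analysed here.

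The animals were male vervet monkeys, and RNA came from the left hippocampus of each. The alcohol variable compared offspring of dams that drank ethanol voluntarily late in gestation (called FASD, for fetal alcohol spectrum disorder) with control offspring of dams given a sucrose solution of equal calories. Dams of both groups were chosen for their preference for alcohol, and a dam could be given ethanol in one pregnancy and sucrose in another. How many dams the animals came from was not used here. The age variable compared animals killed at 5 months with animals killed at 2 years. Arrays of 22 animals were used: 6 control and 5 FASD animals at each age. For control animal 6 at 5 months the source name gives 2 years, against 5 months in its other labels, and it was kept at 5 months.

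The probes were designed on rhesus macaque sequence, and a probe that does not match the vervet transcript reads low for that reason alone. Levels of different probe sets were therefore not read as differences in expression between genes. Values are log2 expression intensities, and every difference below is on the same log2 scale. No detection filter was added to that of the authors, so all 32 probe sets were tested. Of these, 20 read below the median level of the table. Of the list for hippocampal principal neurons 4 markers were measured. Their mean levels were 13.02 for the synaptic vesicle protein SYT1, 10.75 for NRGN, 10.02 for NEUROD6, and 7.93 for the granule cell factor PROX1. Of the list for striatum and thalamus, PENK gave 11.43 and 7.27 in its probe sets, PDE10A 7.17, and TCF7L2 6.69. Because such levels are not read as differences between genes, they do not test the label of the tissue. In bulk tissue, fewer cells of a type and less RNA per cell cannot be told apart, and this holds for each value below.

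Arrays were very similar, with pairwise correlations between 0.972 and 0.995. One animal stood apart in its correlations. FASD animal 2 at 5 months correlated least with the rest (mean 0.979, against a median of 0.989 over arrays), and in it the mean deviation from the average over animals was 1.04 for markers of mural cells and fibroblasts, 0.59 for those of myelin, and 0.36 for those of microglia, while the markers of principal neurons stood at -0.37. A further 2 arrays were also low in principal neuron markers, at -0.48 in FASD animal 2 at 2 years and -0.21 in control animal 2 at 2 years, and the other 19 lay between -0.05 and 0.14. In these 2, in that order, the mean deviations were 0.15 and 0.17 for markers of microglia and 0.09 and 0.13 for those of myelin. For mural cells and fibroblasts they were -0.10 and 0.18. Markers of inhibitory neurons were not low in these 3 animals. Their mean deviation was 0.08 in FASD animal 2 at 5 months, 0.28 in FASD animal 2 at 2 years, and 0.22 in control animal 2 at 2 years. Below, low in neuron markers refers to the list of principal neurons alone. The fits were repeated without the 3 animals low in that list, a choice made after their values were seen. Differences that passed or lost an unadjusted p under 0.05 in that repeat are given both ways. Markers of choroid plexus and ependyma set other animals apart. Their mean deviation was 1.25 in control animal 6 at 5 months, the animal with conflicting labels. It was 0.66 and 0.45 in FASD animals 3 and 5 of that age and -0.29 in FASD animal 2.

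Alcohol was the first independent variable. Averaged over both ages, no receptor probe set differed between FASD and control animals at an unadjusted p under 0.05 (0 of 32), against 8.44% of all probe sets in the table. By Benjamini-Hochberg adjustment over the whole table, limma called no probe set at all for alcohol, and the lowest adjusted p of a receptor was 0.608. Without the 3 animals low in neuron markers, 3 receptor probe sets had an unadjusted p under 0.05 (12.5% of all probe sets then did). In that repeat GABRE (0.21) and GABRG3 (0.11) were higher and GLRA2 (-0.19) was lower in FASD animals. All 3 read low on the array, with mean levels above 9.0% (GABRE), 3.7% (GABRG3), and 13.3% (GLRA2) of all probe sets. With arrays weighted by their quality the count was 5, with a lowest adjusted p of 0.245. The share of all probe sets under those weights is not given here, so this count is not read as a result about receptors. The receptor differences lay between -0.31 (HTR7) and 0.19 (GABRA3) with a median of 0.02, and 15 were lower and 17 higher in FASD animals. Over all probe sets the median difference was -0.01, and 53.2% were lower. The 95% interval of the difference lay within 0.5 of zero for 30 of 32 receptor probe sets and within 0.25 of zero for 17. The exceptions to the wider bound were HTR7, whose interval ran from -0.71 to 0.09, and P2RY12, whose interval ran from -0.58 to 0.10.

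Age was the second. Between 5 months and 2 years, 3 of 32 receptor probe sets (9.38%) differed at an unadjusted p under 0.05, against 9.57% of all probe sets, so receptors were called about as often as any other row. GABRA3 and HTR1E were higher and ADRA2A was lower at 2 years. None of these passed the adjustment over the table, which 16 probe sets (0.139%) did. Without the 3 animals low in neuron markers the count was 2, ADRA2A and GABRA2 (0.12), against 13.1% of all probe sets. The receptor differences had a median of 0.02, with 12 lower and 20 higher at 2 years, and the interval lay within 0.5 of zero for 31 of 32. The plot of differences shows both variables by class.

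**Figure D1:**
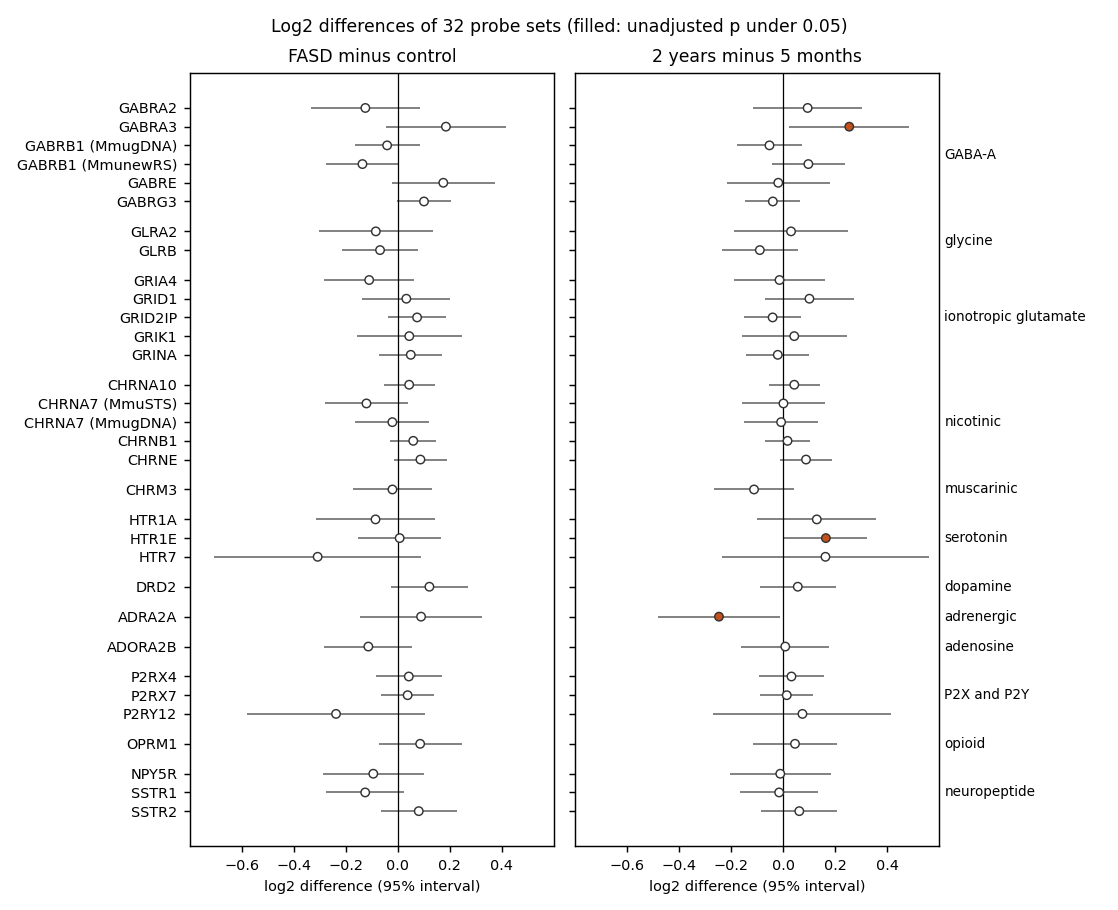
Log2 difference of each of the 32 probe sets for alcohol (left, FASD minus control, averaged over ages) and for age (right, 2 years minus 5 months, averaged over exposures), with lines for the 95% interval from limma. Classes are named at the right, the text in brackets after a gene begins the name of its probe set, and filled points mark the 3 age differences (GABRA3, HTR1E, ADRA2A) with an unadjusted p under 0.05, while no alcohol difference is filled.

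The interaction asked whether the alcohol difference was the same at both ages. It had an unadjusted p under 0.05 for 1 of 32 receptor probe sets, GRIK1, against 3.00% of all probe sets, and no probe set in the table passed the adjustment. Without the 3 animals low in neuron markers the count was 4 (GRIK1, ADRA2A, GLRA2, and 1 probe set of CHRNA7), against 5.81% of all probe sets, with a lowest adjusted p of 0.838. Precision was lower here, and the interval of the interaction lay within 0.5 of zero for 23 of 32. Within single strata, 1 receptor had an unadjusted p under 0.05 for alcohol at 5 months (SSTR1; 4.83% of all probe sets), 0 for alcohol at 2 years (6.05%), 2 for age among controls (ADRA2A and HTR1A; 5.55%), and 0 for age among FASD animals (6.99%). These comparisons share animals with one another and with the averaged ones. The strata were also moved by the 3 animals low in neuron markers. Without them 8 receptors had an unadjusted p under 0.05 for alcohol at 2 years (14.0% of all probe sets): ADRA2A (0.33), GRIK1 (0.38), GABRE (0.28), CHRNE (0.17), and P2RX4 (0.17) were higher in FASD animals, and GLRA2 (-0.46), P2RY12 (-0.56), and 1 probe set of CHRNA7 (-0.25) were lower. For age among controls the count was 5 (14.9%), with GLRA2 (0.29), HTR1E (0.18), and GABRA2 (0.17) higher and ADRA2A (-0.52) and GRIK1 (-0.27) lower at 2 years, while HTR1A had 0.31 (unadjusted p = 0.0524). For age among FASD animals it was 3 (6.05%), with GRIK1 (0.37) and CHRNE (0.17) higher and GLRA2 (-0.26) lower, and for alcohol at 5 months it was 1 (4.33%), GRIK1 (-0.27). The lowest adjusted p of a receptor in these strata was 0.0778, for ADRA2A among controls. The members are described below by transmitter.

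GABA-A receptors are chloride channels of 5 subunits, most often alpha, beta, and gamma, and the alpha subunit shapes where the receptor sits and how it responds to benzodiazepines. GABRA3, the alpha 3 subunit, ran from 8.01 to 8.35 in control animals at 5 months, with a median of 8.08. The 5 FASD animals of that age read 8.55, 8.35, 8.11, 8.32, and 8.31. At 2 years the control animals ran from 7.73 to 8.95 with a median of 8.44, and the FASD animals read 8.42, 9.11, 8.59, 8.40, and 8.34. Most 2-year animals were thus above most 5-month animals, but the groups overlapped, since both the lowest reading of all (control animal 6) and the highest (FASD animal 2) were at 2 years. The age difference was 0.25 (SE 0.11, 95% interval 0.02 to 0.48, limma unadjusted p = 0.0322, adjusted p = 0.459), and the exact permutation test within exposure gave p = 0.0358. It was 0.26 among the controls (exact permutation p = 0.169) and 0.24 among the FASD animals (exact permutation p = 0.135), and the interaction was -0.02. Leaving out 1 animal gave 0.19 to 0.32, with an unadjusted p above 0.05 for 4 of the 22 animals. The 2 highest readings came from animals low in principal neuron markers (FASD animal 2 and control animal 2 at 2 years), and without the 3 animals low in those markers the age difference was 0.16 with an unadjusted p = 0.0861. Alcohol gave 0.19 for GABRA3 (SE 0.11, unadjusted p = 0.110).

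GABRA2, the alpha 2 subunit, is found at the axon initial segment of hippocampal pyramidal cells. Control animals ran from 10.01 to 10.45 at 5 months and from 9.81 to 10.50 at 2 years, with medians of 10.29 and 10.41. FASD animals read 9.48, 10.18, 10.36, 10.23, and 10.25 at 5 months and 10.30, 9.81, 10.37, 10.33, and 10.31 at 2 years. The animals were close together except for 3, one in each of 3 groups, which are taken up with the neuron markers below. The alcohol difference was -0.13 (SE 0.10, unadjusted p = 0.231) and the age difference was 0.09 (SE 0.10, unadjusted p = 0.366).

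GABRB1, the beta 1 subunit, gave the lowest unadjusted p of any receptor for alcohol, and in only 1 of its 2 probe sets. In probe set MmunewRS.263.1.S1_at the control animals ran from 7.23 to 7.61 (median 7.43) at 5 months and from 7.29 to 7.85 (median 7.51) at 2 years. The FASD animals read 7.31, 7.12, 7.39, 7.24, and 7.47 at 5 months and 7.26, 7.26, 7.38, 7.46, and 7.54 at 2 years. FASD animals were lower on average, with overlap at each age (difference -0.14, SE 0.07, unadjusted p = 0.0558, adjusted p = 0.608). The second probe set, MmugDNA.24091.1.S1_at, gave -0.04 (SE 0.06, unadjusted p = 0.503). Over the 22 animals the 2 probe sets were only weakly correlated (r = 0.18, permutation p = 0.421, rho = 0.26, permutation p = 0.246).

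GABRG3 and GABRE are a gamma and an epsilon subunit. For GABRG3 the control animals ran from 4.18 to 4.61 (median 4.39) at 5 months and from 4.17 to 4.42 (median 4.37) at 2 years. The FASD animals read 4.34, 4.50, 4.44, 4.54, and 4.53 at 5 months and 4.49, 4.35, 4.35, 4.58, and 4.42 at 2 years. The alcohol difference was 0.10 (SE 0.05, limma unadjusted p = 0.0611), and the exact permutation test within age gave p = 0.0426 before any adjustment. GABRE was higher in FASD animals by 0.18 (SE 0.10, unadjusted p = 0.0808). Its control means were 5.29 and 5.25 and its FASD means 5.45 and 5.45 at 5 months and 2 years. Both genes read near the low end of the array (means over animals 4.40 for GABRG3 and 5.35 for GABRE). Whether these readings stood above background was not tested here.

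Glycine receptors are chloride channels of alpha subunits with a beta subunit that ties them to the scaffold protein gephyrin. GLRB, the beta subunit, had group means of 9.88 ± 0.17 (SD, n = 6) at 5 months in controls, against 9.76 ± 0.09 (SD, n = 5) after exposure. The means of the older animals were 9.74 ± 0.14 (SD, n = 6) and 9.72 ± 0.25 (SD, n = 5). Its differences were -0.07 (SE 0.07) for alcohol and -0.09 (SE 0.07) for age, both within the spread between animals. GLRA2, the alpha 2 subunit, ran from 5.62 to 6.22 (median 5.74) in controls at 5 months and read 5.72, 6.04, 5.82, 5.83, and 5.90 in the FASD animals of that age. At 2 years the controls ran from 5.34 to 6.37 (median 6.07), and the FASD animals read 5.59, 6.22, 5.58, 5.85, and 5.54. The lowest control (5.34) and the highest FASD animal (6.22) at 2 years were both animal 2 of their group, each low in principal neuron markers, and 4 of the other 5 controls lay above the other 4 FASD animals.

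GLRA2 gave -0.08 (SE 0.11) for alcohol and 0.03 (SE 0.11) for age over all 22 animals, and its interaction was -0.27 (SE 0.21, unadjusted p = 0.217). The interaction was -0.55 without the 3 animals low in neuron markers (SE 0.16, unadjusted p = 0.00239, adjusted p = 0.838), from an alcohol difference of 0.09 at 5 months and of -0.46 at 2 years. It was -0.42 with array weights (unadjusted p = 0.0157) and -0.40 without control animal 2 at 2 years alone (unadjusted p = 0.0350).

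Among the glutamate receptors, GRIK1 (the kainate receptor subunit GluK1) was the one receptor of all 32 probe sets with an unadjusted interaction p under 0.05. That share was close to the 3.00% of all probe sets. At 5 months the controls ran from 7.11 to 7.75 with a median of 7.56, and the FASD animals read 7.76, 7.07, 7.13, 7.21, and 7.62. At 2 years the controls ran from 7.12 to 7.87 with a median of 7.25, and the FASD animals read 7.60, 7.53, 7.83, 7.56, and 7.53. All 5 FASD animals at 2 years were thus above 5 of the 6 controls of that age, whereas at 5 months 3 of the 5 FASD animals were below 5 of the 6 controls. Control animal 2 at 2 years and control animal 6 at 5 months were the controls outside this pattern, and the groups overlapped at both ages. The alcohol difference was -0.17 at 5 months (exact permutation p = 0.331) and 0.26 at 2 years (exact permutation p = 0.0866). The interaction was 0.42 (SE 0.20, 95% interval 0.02 to 0.83, limma unadjusted p = 0.0419, adjusted p above 0.99). It was 0.64 without the 3 animals low in neuron markers (unadjusted p = 0.00105, adjusted p = 0.838) and 0.50 without control animal 6 at 5 months, the animal with conflicting labels (unadjusted p = 0.0128). With arrays centred on their median it was 0.38 (unadjusted p = 0.0718). Its unadjusted p was also above 0.05 by two-way analysis of variance, with quantile normalization, and with a block for replicate number. Leaving out 1 animal gave 0.35 to 0.52, with an unadjusted p above 0.05 for 13 of the 22 animals.

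GRIA4, the AMPA receptor subunit GluA4 that is typical of fast interneurons, gave an alcohol difference of -0.11 (SE 0.08, unadjusted p = 0.201) and an age difference of -0.01 (SE 0.08). Group means were 7.97 and 7.78 in control and FASD animals at 5 months and 7.87 and 7.84 at 2 years. It followed the markers of inhibitory neurons (GAD1, NPY, LHX6, DLX1, VIP) across the 22 animals, with Pearson's r = 0.67 (permutation p = 0.00063, adjusted over 288 relations 0.0409) and Spearman's rho = 0.67 (permutation p = 0.00076, adjusted 0.189). Without the 2 animals farthest from the median of the markers r was 0.64, and r of the deviations from group means was also 0.64. These 288 relations paired 32 probe sets with 9 lists of cell types or neighbouring regions, each with at least 3 measured probe sets. The list of principal neurons was among the 9. By Pearson's r 8 relations passed the adjustment, and by Spearman's rho 0 did. With the 5 lists of at least 5 probe sets, 1 of 160 passed by r and 0 by both. Others of the 8 moved toward zero without the 2 farthest animals, as from -0.70 to -0.32 for HTR7 and microglia and from -0.67 to -0.49 for HTR1E and mural cells and fibroblasts. GRID1, the delta 1 subunit, had the lowest p of the class for age (difference 0.10, SE 0.08, unadjusted p = 0.233), with means of 6.60 ± 0.12 and 6.53 ± 0.26 in control and FASD animals at 5 months and 6.60 ± 0.23 and 6.73 ± 0.18 at 2 years. For the scaffold gene GRID2IP the alcohol difference was 0.07 (SE 0.05, unadjusted p = 0.180), from means of 8.98 and 9.06 at 5 months and of 8.94 and 9.02 at 2 years. GRINA gave 0.05 for alcohol and -0.02 for age.

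**Figure D2:**
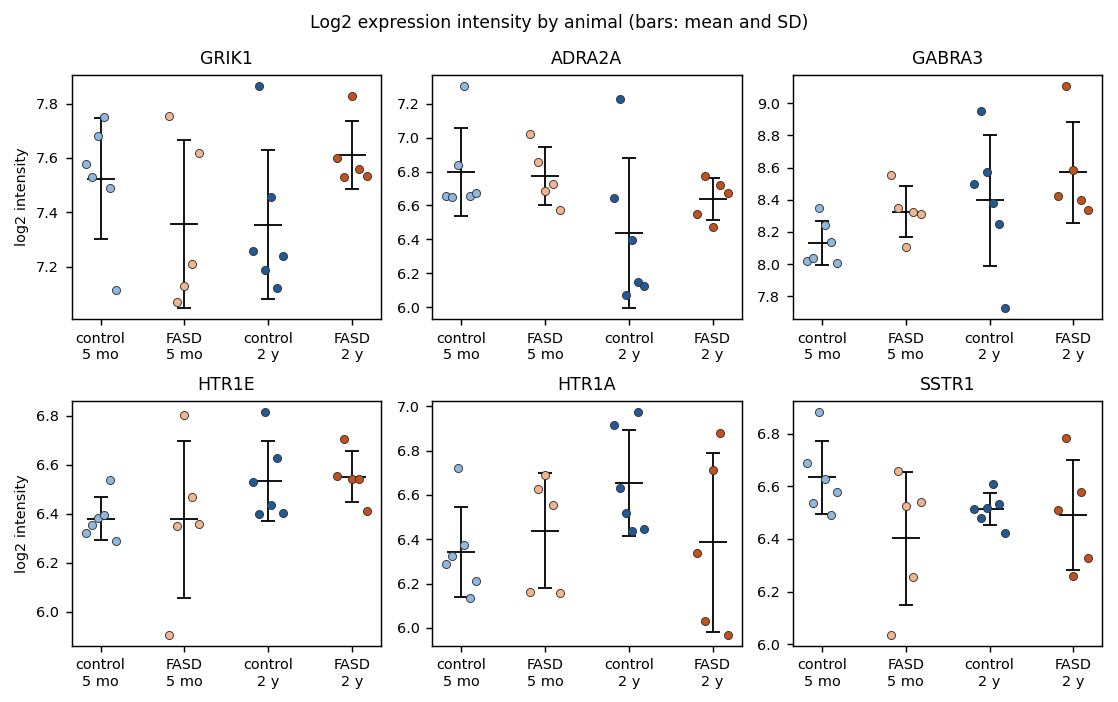
Log2 intensity of 6 receptor probe sets in each animal of the 4 groups, with horizontal bars for the group mean and whiskers for the SD (6 control and 5 FASD animals at each age). In GRIK1 the 5 FASD animals at 2 years lie above 5 of 6 controls, in ADRA2A 4 of 6 controls at 2 years lie below every other animal, and in every panel the groups overlap.

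Nicotinic receptors are cation channels gated by acetylcholine, and the alpha 7 subunit alone can form the homomeric receptor common in the hippocampus. The 2 probe sets of CHRNA7 followed each other closely over the animals (r = 0.88, permutation p = 1e-05, the smallest that the permutations can give, rho = 0.80, permutation p = 5e-05, and r = 0.81 without the 2 animals farthest from the median). For alcohol they gave -0.12 (SE 0.08, unadjusted p = 0.132) in MmuSTS.1620.1.S1_at and -0.02 (SE 0.07, unadjusted p = 0.760) in MmugDNA.33973.1.S1_at, and for age 0.00 and -0.01. The interaction in MmuSTS.1620.1.S1_at was -0.10 (unadjusted p = 0.542), and -0.27 without the 3 animals low in neuron markers (unadjusted p = 0.0498, adjusted p = 0.838). In MmugDNA.33973.1.S1_at the interaction was 0.03 (unadjusted p = 0.814), and -0.13 without those 3 animals (unadjusted p = 0.289). Without them its alcohol difference at 2 years was -0.07 (unadjusted p = 0.411). CHRNE, the epsilon subunit known from the adult neuromuscular junction, had the lowest p of the class for both variables. Its control animals ran from 6.62 to 6.80 (median 6.70) at 5 months and from 6.59 to 6.89 (median 6.77) at 2 years, and its FASD animals read 6.84, 6.65, 6.67, 6.89, and 6.74 and then 6.97, 6.79, 6.95, 6.99, and 6.71. Both differences were 0.09 (SE 0.05), with an unadjusted p = 0.0882 for alcohol and 0.0863 for age. CHRNB1, the beta 1 subunit, varied least between animals of all the receptors (SD within groups 0.083), and its interval for alcohol ran from -0.03 to 0.15. CHRNA10 gave 0.04 for both variables.

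CHRM3, the M3 muscarinic receptor, gave a difference of -0.11 (SE 0.07, unadjusted p = 0.143) for age and -0.02 (SE 0.07, unadjusted p = 0.781) for alcohol. Group means were 8.71 ± 0.08 (SD, n = 6) and 8.66 ± 0.18 (SD, n = 5) in control and FASD animals of 5 months, and at 2 years they were 8.56 ± 0.19 (SD, n = 6) and 8.58 ± 0.25 (SD, n = 5). The sign of its alcohol difference was not stable under alternative settings.

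Serotonin receptors were represented by 3 that couple to G proteins. HTR1E, a receptor of the inhibitory 5-HT1 group, ran from 6.29 to 6.54 (median 6.37) in controls at 5 months and read 5.91, 6.35, 6.80, 6.47, and 6.36 in the FASD animals of that age. At 2 years the controls ran from 6.40 to 6.82 (median 6.48) and the FASD animals read 6.55, 6.71, 6.54, 6.54, and 6.41. Of the animals at 5 months, 8 read below the lowest animal at 2 years, while FASD animal 4 at 5 months was among the highest. The age difference was 0.16 (SE 0.08, limma unadjusted p = 0.0444, adjusted p = 0.496), and the exact permutation test within exposure gave p = 0.0515. Leaving out 1 animal gave 0.11 to 0.22, with an unadjusted p above 0.05 for 15 of the 22 animals. The lowest reading was that of FASD animal 2 at 5 months, the array that stood apart. Without the 3 animals low in neuron markers the age difference was 0.10 (unadjusted p = 0.139).

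HTR1A, the 5-HT1A receptor, is abundant on pyramidal cells, where it opens potassium channels and lowers firing. Controls ran from 6.14 to 6.72 (median 6.31) at 5 months and from 6.44 to 6.97 (median 6.57) at 2 years. FASD animals read 6.16, 6.63, 6.69, 6.55, and 6.16 at 5 months and 6.34, 6.03, 6.71, 6.88, and 5.97 at 2 years. Among controls the age difference was 0.31 (SE 0.15, limma unadjusted p = 0.0496, adjusted p = 0.873, exact permutation p = 0.0390), with 5 of 6 controls at 5 months below every control at 2 years. Among FASD animals it was -0.05 (exact permutation p = 0.833), and those at 2 years spread over both ends of the range. The test of the difference between these strata, the interaction, gave -0.36 (SE 0.22, unadjusted p = 0.116), so a different age course in the exposed animals was not shown.

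HTR7 had the largest alcohol difference and the largest spread of all the receptors, with an SD within groups of 0.495 that exceeded 98.8% of all probe sets. Its controls ran from 7.31 to 7.69 (median 7.37) at 5 months and from 7.02 to 7.82 (median 7.59) at 2 years. FASD animals read 5.41, 7.34, 7.71, 7.40, and 7.36 at 5 months and 7.37, 6.74, 7.47, 7.60, and 7.28 at 2 years. The reading of 5.41 came from FASD animal 2, and the other 4 FASD animals of that age lay within the range of the controls or just beyond it. The alcohol difference of -0.31 (SE 0.19, unadjusted p = 0.122) was -0.09 without the 3 animals low in neuron markers (unadjusted p = 0.255).

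ADRA2A, the alpha 2A adrenergic receptor that dampens noradrenaline release, was the only receptor lower at 2 years at an unadjusted p under 0.05. Controls ran from 6.65 to 7.31 with a median of 6.66 at 5 months and from 6.07 to 7.23 with a median of 6.27 at 2 years. FASD animals read 7.02, 6.86, 6.68, 6.73, and 6.57 at 5 months and 6.55, 6.77, 6.47, 6.72, and 6.67 at 2 years. Of the controls at 2 years, 4 were below every other animal of the study, while control animal 2 was above all but 1. The age difference was -0.25 (SE 0.11, 95% interval -0.48 to -0.01, limma unadjusted p = 0.0408, adjusted p = 0.485), with an exact permutation p = 0.0427 within exposure. It was -0.36 among controls (SE 0.15, limma unadjusted p = 0.0283, exact permutation p = 0.121) and -0.13 among FASD animals (exact permutation p = 0.198), and over all 22 animals the interaction was 0.23 (SE 0.23, unadjusted p = 0.332). The interaction was 0.41 without the 3 animals low in neuron markers (SE 0.18, unadjusted p = 0.0330, adjusted p = 0.838) and 0.38 without control animal 2 at 2 years alone (unadjusted p = 0.0377). Without the 3 animals low in neuron markers, of which control animal 2 at 2 years is one, the age difference was -0.31 (unadjusted p = 0.00243, adjusted p = 0.151). Leaving out 1 animal gave -0.33 to -0.20, with an unadjusted p above 0.05 for 10 of the 22 animals. The alcohol difference was 0.09 (SE 0.11, unadjusted p = 0.442).

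DRD2, the D2 dopamine receptor, had a tight group of FASD animals at 5 months (6.15, 6.13, 6.14, 6.10, and 6.03) against controls that ran from 5.64 to 6.25 with a median of 5.91. Controls at 2 years ran from 5.93 to 6.26 (median 6.03), and the FASD animals read 6.34, 6.26, 6.13, 5.73, and 6.08. The alcohol difference was 0.12 (SE 0.07, unadjusted p = 0.101), and at 5 months alone it was 0.18 (exact permutation p = 0.0952). The age difference was 0.06 (SE 0.07, unadjusted p = 0.440).

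Purine receptors include the adenosine receptors and the P2 receptors for ATP and ADP. P2RY12, the ADP receptor that marks homeostatic microglia, had the second largest spread of the receptors (SD within groups 0.425). Its controls ran from 8.80 to 10.07 (median 9.21) at 5 months and from 9.14 to 9.94 (median 9.56) at 2 years. FASD animals read 9.75, 9.08, 8.58, 9.24, and 9.58 at 5 months and 8.78, 9.26, 9.62, 8.68, and 9.20 at 2 years. FASD animals were lower at 2 years (difference -0.45, SE 0.23, limma unadjusted p = 0.0665, exact permutation p = 0.0714), with overlap, and at 5 months the difference was -0.03. The interaction was -0.43 (SE 0.33, unadjusted p = 0.211). No correlation of P2RY12 with the mean of 7 other microglial markers was shown over the 22 animals (r = 0.20, permutation p = 0.374, rho = 0.11, permutation p = 0.617, adjusted 0.678 and 0.931). Of those 7 markers, 1 had an unadjusted p under 0.05 for alcohol, C1QA, which was higher in FASD animals by 0.22. At 2 years alone, C1QA was higher by 0.31 and AIF1 lower by 0.58.

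The ion channels P2RX4 and P2RX7 varied little, with alcohol differences of 0.04 each and age differences of 0.03 and 0.01. Means of P2RX4 were 6.94 and 6.91 in control and FASD animals at 5 months and 6.90 and 7.01 at 2 years. ADORA2B, the A2B adenosine receptor, gave -0.11 for alcohol (SE 0.08, unadjusted p = 0.179) and 0.01 for age (SE 0.08, unadjusted p = 0.927), from means of 7.48 and 7.42 at 5 months and 7.54 and 7.38 at 2 years.

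OPRM1, the mu opioid receptor found on hippocampal interneurons, had means of 8.28 ± 0.22 and 8.38 ± 0.20 in control and FASD animals at 5 months and of 8.34 ± 0.11 and 8.41 ± 0.21 at 2 years (SD, n = 6 and n = 5 at each age). It differed neither for alcohol (0.09, SE 0.08, unadjusted p = 0.278) nor for age (0.05, SE 0.08, unadjusted p = 0.565) beyond the spread between animals.

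The peptide receptors were SSTR1 and SSTR2 for somatostatin and NPY5R for neuropeptide Y, both peptides of hippocampal interneurons. SSTR1 ran from 6.49 to 6.88 (median 6.60) in controls at 5 months, and the FASD animals of that age read 6.04, 6.66, 6.53, 6.25, and 6.54. Older controls ran from 6.42 to 6.61 (median 6.52), and older FASD animals read 6.51, 6.79, 6.26, 6.58, and 6.33. The alcohol difference at 5 months was -0.23 (SE 0.10, limma unadjusted p = 0.0348, adjusted p = 0.932, exact permutation p = 0.0931), and at 2 years it was -0.02. The lowest reading came from FASD animal 2 at 5 months, and without the 3 animals low in neuron markers the difference at 5 months was -0.14 (unadjusted p = 0.122). Averaged over ages the alcohol difference was -0.13 (SE 0.07, unadjusted p = 0.0973), and the interaction was 0.21 (SE 0.15, unadjusted p = 0.161). SSTR2 gave 0.08 for alcohol (unadjusted p = 0.267) and 0.06 for age (unadjusted p = 0.393), with means of 8.45 and 8.48 at 5 months and 8.46 and 8.59 at 2 years. NPY5R gave -0.09 for alcohol and -0.01 for age.

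**Figure D3:**
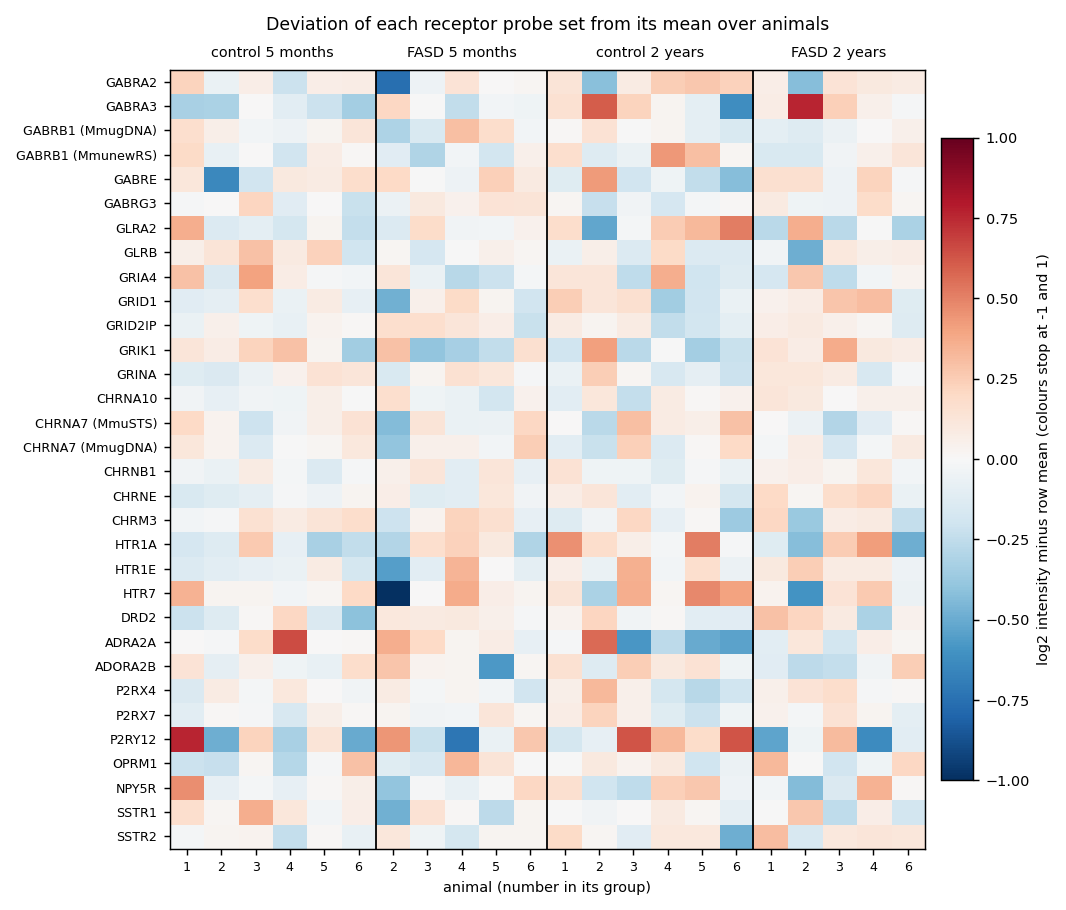
Deviation of each receptor probe set (rows, by class) in each animal (columns, by group and numbered as labelled) from the mean of its row over the 22 animals, in log2 units, with colours that stop at -1 and 1. No block of rows follows the 4 groups, single animals carry the strongest colours, and FASD animal 2 at 5 months holds the lowest readings of HTR7 and GABRA2.

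The spread between animals within groups was somewhat wider for receptors (median SD 0.183) than for all probe sets (median SD 0.158), and it was largest in HTR7, P2RY12, ADRA2A, GABRA3, and HTR1A. Part of the pattern lay in the 3 animals low in principal neuron markers, which belong to 3 different groups. In GABRA2 these 3 animals gave the 3 lowest readings of all 22 (9.48, 9.81, and 9.81), and the other 19 lay between 10.01 and 10.50. In HTR7 they also gave the 3 lowest readings (5.41, 6.74, and 7.02), and the other 19 lay between 7.28 and 7.82. The 2 highest readings of GABRA3 (9.11 and 8.95) were from the 2 of these animals killed at 2 years. Because the animals formed 2 separate sets on this measure, no correlation over all of them is given. Such correlations were still counted among the 288 relations adjusted together. Within the other 19, neither GABRA2 (r = 0.11, permutation p = 0.668, rho = 0.14, permutation p = 0.571) nor HTR7 (r = 0.21, permutation p = 0.381, rho = 0.15, permutation p = 0.552) followed the markers. Of the 32 probe sets, 1 did so within these 19 animals after adjustment over the 32, OPRM1, which was lower where the markers were higher (r = -0.81, permutation p = 3e-05, adjusted 0.00096, rho = -0.77, permutation p = 0.00019, adjusted 0.00608). Its r without the 2 animals farthest from the median was -0.75. The 3 animals left out had the lowest markers, but 0 of them were among the 3 highest readings of OPRM1. Their deviations from its mean over animals were -0.12 in FASD animal 2 at 5 months, -0.005 in FASD animal 2 at 2 years, and 0.10 in control animal 2 at 2 years. The relation is thus given for the 19 animals alone. The split into 19 and 3 animals was chosen after the values were seen. The share of tissue or cell composition in these readings was not tested.

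**Figure D4:**
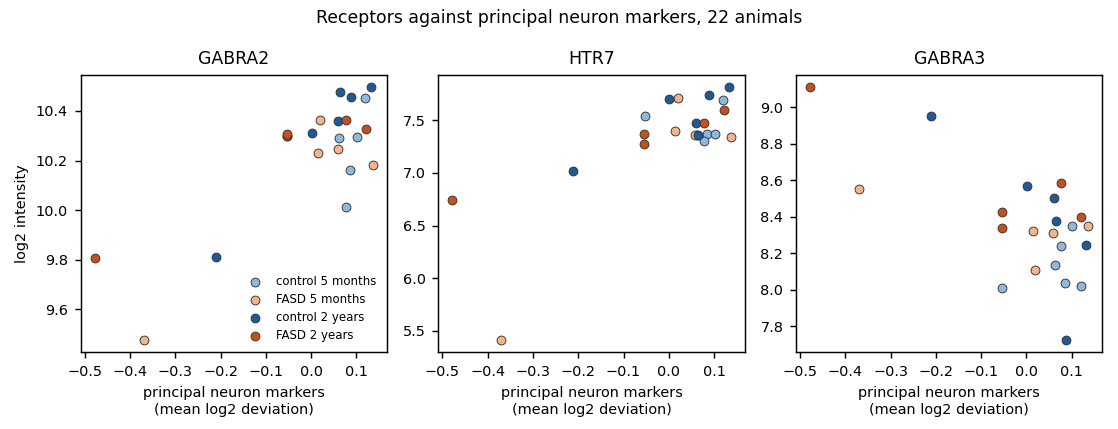
Log2 intensity of GABRA2, HTR7, and GABRA3 (vertical axes) against the mean log2 deviation of 4 principal neuron markers (horizontal axes), with 1 point for each of the 22 animals, coloured by group. The 3 points at the left are animal 2 of FASD at 5 months, of control at 2 years, and of FASD at 2 years, and they hold the 3 lowest readings of GABRA2 and of HTR7 and the 2 highest of GABRA3.

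Proteins that work beside the receptors were taken as 5 lists, whose counts are to be read against the 8.44% of all probe sets for alcohol and 9.57% for age. For synthesis, transport, and anchoring at GABA and glycine synapses 8 probe sets were measured, and 2 were lower in FASD animals at an unadjusted p under 0.05. These were GAD1, which makes GABA (-0.16, SE 0.07, unadjusted p = 0.0316), and GPHN, the gephyrin scaffold (-0.10, SE 0.05, unadjusted p = 0.0418). For GAD1 the difference was -0.34 at 5 months (SE 0.10, unadjusted p = 0.00243, adjusted p = 0.849), and the interaction was 0.36 (SE 0.14, unadjusted p = 0.0186). For age, SLC12A5, the chloride exporter KCC2 on which inhibition by these receptors rests, was higher at 2 years by 0.16 (SE 0.07, unadjusted p = 0.0392, adjusted p = 0.481). The median of the list was 0.00 for alcohol and 0.02 for age, near those of all probe sets.

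For the glutamate synapse 22 probe sets were measured. SHANK2, a postsynaptic scaffold, was the one with an unadjusted p under 0.05 for alcohol (-0.13, SE 0.06, unadjusted p = 0.0440), and GLUL, the glutamine synthetase of astrocytes, was the one for age (0.09, SE 0.05, unadjusted p = 0.0496). For acetylcholine and monoamines 5 probe sets gave 0 for alcohol and 2 for age, both higher at 2 years: LYNX1, which binds nicotinic receptors (0.13), and one probe set of BCHE, butyrylcholinesterase (0.31). For purines and peptides 9 probe sets gave 0 for alcohol and 1 for age, ENTPD3, which breaks down extracellular ATP (0.23).

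For G proteins and their regulators 22 probe sets gave 3 for alcohol and 0 for age. ADCY5, an adenylyl cyclase inhibited through D2 and other receptors of its kind, was higher in FASD animals by 0.20 (SE 0.06, unadjusted p = 0.00492), and RGS20 and RGS7, which shorten signals of inhibitory G proteins, were lower (-0.21 and -0.15). The lowest adjusted p in any of these 5 lists was 0.579 for alcohol and 0.462 for age, so none passed over the table.

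The lists of other cell types were read in the same arrays, again against 8.44% of all probe sets for alcohol and 9.57% for age. Of 6 myelin probe sets 2 were higher in FASD animals at an unadjusted p under 0.05 (UGT8 by 0.30 and MAL by 0.24), of 5 probe sets of oligodendrocyte precursors 1 was (GPR17 by 0.49), of 4 of mural cells and fibroblasts 1 was (MYH11 by 0.15), and of 2 of endothelium 1 was (PECAM1 by 0.16). Of 5 probe sets of inhibitory neurons 1 was lower (GAD1), and of 4 of principal neurons 0 passed.

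At 5 months alone 3 of 6 were higher in FASD animals (MBP by 0.57, UGT8 by 0.56, and MAL by 0.42; 4.83% of all probe sets were called) with a list median of 0.27, and at 2 years 0 of 6 passed, with a median of -0.03. The interaction had an unadjusted p under 0.05 for MBP (-0.82) and UGT8 (-0.51), against 3.00% of all probe sets. FASD animal 2 at 5 months, the array that stood apart, had a mean deviation of 0.59 on this list, and the other 4 FASD animals of that age lay between -0.01 and 0.23 against -0.24 to 0.03 in controls. With the 3 animals low in neuron markers left out, 3 of 6 were higher at 5 months, with a median of 0.21 (4.33% of all probe sets were called). At 2 years 2 of 6 were then lower (14.0% of all probe sets).

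For age, 3 of 6 myelin probe sets passed (MAL at -0.34 and UGT8 at -0.25 lower, MYRF at 0.15 higher at 2 years), with a list median of -0.02. The strata went in different directions. Among controls 2 of 6 passed, both higher at 2 years, with a median of 0.12 (5.55% of all probe sets were called). Among FASD animals 3 of 6 passed, all lower, with a median of -0.25 (6.99%). Of 5 probe sets of oligodendrocyte precursors 2 passed (GPR17 and VCAN, differences -0.49 and -0.31), with a median of -0.19. Passing also were 1 of 7 of microglia (C1QA, -0.36), 1 of 5 of inhibitory neurons (DLX1, -0.15), and 1 of 4 of principal neurons (NRGN, -0.21). The medians of these lists were 0.02, -0.01, and -0.01. The lowest adjusted p of these was 0.171, for C1QA. The part of these cells in the receptor values was not tested. The mean deviation of the principal neuron list had a control and a FASD value of 0.07 and -0.03 at 5 months and of 0.02 and -0.08 at 2 years, where the SD between animals was 0.06 to 0.24. Blood markers had no probe set in the table under a single symbol.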

How the data were processed

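RNA of each left hippocampus had been hybridized by the authors to the Affymetrix GeneChip Rhesus Macaque Genome Array. The deposited values are log2 intensities that the authors made by RMA (version: not given in the sources used here), then limited to annotated probe sets detected in at least 6 arrays, with 1 set per gene; 2 of 24 arrays, which the authors discarded, held no values. The table had 11512 rows, of which the platform annotation names 8730 with 1 symbol, 88 with several, and 2694 with none; it still gives 2 genes among the receptors 2 rows each. The precision is limited by the number of arrays.

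The values were used as deposited. Group means of 22 animals were fitted with limma 3.58.1 in R 4.3.3, with Benjamini-Hochberg adjustment over all rows, after the step was tested on simulated data. An unadjusted p under 0.05 served as a descriptive call. Single differences were also tested by exact two-sided permutation within age or exposure. Correlations used 100000 two-sided permutations. Named were any member with a p under 0.05, the lowest p of each class for alcohol and for age, and up to 4 genes per list. Members and lists were chosen with earlier results of these data known. Marker lists needed 3 measured rows; the minimum was 5 at first and was lowered after that result was seen. Alternatives were a two-way analysis of variance, trend and robust variances, median centring, quantile normalization, the upper range of expression, 1 probe set per gene, array weights, a replicate block, and leaving out each animal. Python 3.11.15, scipy 1.17.1, and matplotlib 3.10.9 were used.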

Additional observations from a re-analysis of the deposited data

Results flagged for a closer look

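In each group the highest and lowest reading of every receptor probe set was compared with the others by Dixon's gap test, and 10 readings stood apart in 128 groups, where chance alone gives about 6.4. Of these, 5 came from the 3 animals low in principal neuron markers. GABRA2 was low in FASD animal 2 at 5 months (9.48), in control animal 2 at 2 years (9.81), and in FASD animal 2 at 2 years (9.81). HTR7 was low in FASD animal 2 at 5 months (5.41), and GLRB was low in FASD animal 2 at 2 years (9.28). The other 5 were GLRB in FASD animal 3 at 5 months (low, 9.61), GRID2IP in FASD animal 6 at 5 months (low, 8.77), GRIK1 in FASD animal 3 at 2 years (high, 7.83), NPY5R in control animal 1 at 5 months (high, 7.44), and ADRA2A in control animal 4 at 5 months (high, 7.31). The alcohol difference of GRIK1 was 0.42 higher at 2 years than at 5 months by the interaction of limma (unadjusted p = 0.0419, adjusted p above 0.99).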

How the results depend on the processing

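With 5 or 6 animals a group, single animals moved the receptor counts, and in none of 31 alternatives did a receptor pass the adjusted threshold (lowest adjusted p 0.245 for alcohol, 0.115 for age, 0.736 for the interaction). Of all probe sets, 8.44% had an unadjusted p under 0.05 for alcohol, 9.57% for age, and 3.00% for the interaction. Without the 3 animals low in neuron markers these shares were 12.5%, 13.1%, and 5.81%. The shares under the other alternatives are not given here, so their counts are not read as results about receptors. At an unadjusted p under 0.05, alcohol gave 0 receptors, but 1 by analysis of variance, 2 with centred arrays, 2 with quantile normalization, 5 with array weights (CHRNE, SSTR1, ADORA2B, GABRB1, GABRE), and 3 without the 3 animals low in neuron markers (GLRA2, GABRG3, GABRE), an alternative chosen after seeing the data; leaving out 1 animal gave 0 to 5, with 5 without control animal 2 at 2 years and 1 or 2 without each of 12 others. Age gave 3, but 1 by analysis of variance and 1 of 12 in the upper range of expression. ADRA2A and HTR1E lay below that range and were not tested in it. Without 1 animal the age count was 0 to 4, with 0 without control animal 3 at 2 years. It was 4 without FASD animal 5 at 5 months or FASD animal 6 at 2 years, and 1 without each of 8 others. The interaction gave 1, but 0 by analysis of variance, with centred arrays, and with quantile normalization. In the upper range of expression it also gave 0, but GRIK1 was not tested there. It gave 2 with array weights, 4 without the 3 animals, and 0 to 3 without 1 animal. The count was 3 without control animal 2 and 2 without FASD animal 4, both killed at 2 years, and 0 without each of 13 others. Whether replicate numbers pair the animals was not settled. Deviations of 30 same-numbered pairs correlated from -0.33 to 0.389, with a mean of 0.0706 against -0.0107 for 151 other pairs. Of the 30, 13 were over 0.1, and 4 of 22 arrays correlated best with their own number. With the replicate block the interaction count was 0, and those for alcohol (0) and age (3) were as before. Of 1181 values of 39 named differences, 76 lost and 51 gained an unadjusted p under 0.05, and 13 changed sign. CHRM3 for alcohol was 0.0303 with array weights, 0.0515 without the 3 animals, and -0.0532 to 0.0198 without 1 animal. ADORA2B for age was -0.0177 with the block and -0.0585 to 0.0474 without 1 animal, and P2RX4 for age was -0.0047 to 0.0558 without 1 animal. Which feature of an animal moves a count was not tested.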
